A study of Homo sapiens with 6 samples.

Results

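The 47 genes described here encode the lysosome's enzymes and membrane, its proton pump and the transcription factors that control them. They were chosen by name from a list, with earlier results of these data known and with cathepsins left out. Each name matched exactly 1 of the 58735 genes of the deposited expression table. They comprise 3 transcription factors, 6 membrane proteins, 4 soluble lumenal proteins that are not hydrolases, 17 hydrolases and 17 subunits of the V-ATPase. RNA was sequenced from SKM-1, an established line of human acute myeloid leukaemia grown in medium with serum, after 48 h with celastrol (3 libraries) or with DMSO (3 libraries). Celastrol is a triterpenoid of the thunder god vine and DMSO is the usual solvent control. The labels name no genetic change in either group, and the sources used here give no dose. Both groups come from 1 cell line, and nothing says that libraries of a group came from separate cultures, so p-values reflect library-to-library spread that may be purely technical. In bulk RNA, fewer cells with a transcript and less transcript per cell cannot be told apart.

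Lysosomes break down proteins, lipids, glycans and glycogen with hydrolases that work best in acid. The V-ATPase supplies the acid: its cytosolic V1 sector splits ATP and drives a rotor that moves protons through the membrane-bound V0 sector. The MiT/TFE transcription factors, TFEB, TFE3 and MITF, are held in the cytosol by mTORC1 when nutrients are plentiful and otherwise enter the nucleus, where they bind an E-box variant called the CLEAR element near lysosomal genes.

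Levels are given as FPKM, fragments scaled by gene length and by a library total, which allows levels of different genes to be compared per length. The length counts all annotated exon bases of a gene, so comparisons of level between genes also depend on the annotation. A gene was tested where its mean over the 6 libraries was at least 1 FPKM, and 44 of the 47 genes passed. Fold changes on the log2 scale come from limma-trend on log2(FPKM + 0.1), which understates the change of low genes, and a gene is called higher or lower where its p-value, adjusted over all 12685 tested genes by Benjamini-Hochberg, is under 0.05. With celastrol, 21 of the 44 tested members rose and 2 fell. Among all tested genes, 15.3% were called higher, 14.2% lower and 29.5% either way. The members' median log2 fold change was 0.23, against 0.02 for all tested genes. Values of the 2 treatments did not overlap for 23 members that were higher and 2 that were lower with celastrol, against 25.3% and 22% of all tested genes in those directions.

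**Figure D1:**
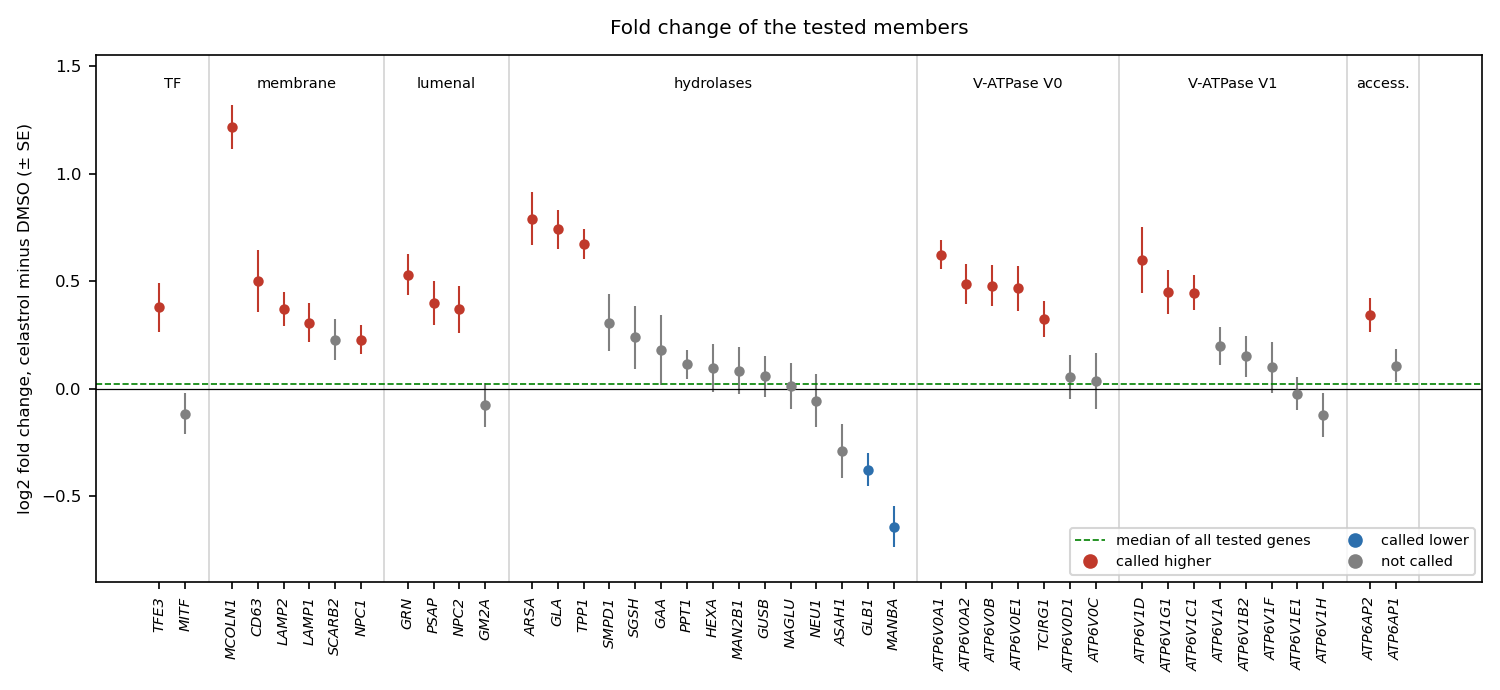
Log2 fold change of each of the 44 tested members, celastrol minus DMSO, with its standard error, by role; red points were called higher, blue lower and grey not called. The 6 membrane proteins all lie above the dashed median of all tested genes, the hydrolases spread from MANBA at -0.64 to ARSA at 0.79, and no V-ATPase subunit among the members was called lower.

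Depth was 13549187 to 16231066 reads per library, recovered from the deposited values. Mitochondrial genes took 1.37% to 1.85% of reads in celastrol libraries and 5.44% to 5.65% in DMSO libraries. With libraries scaled to their listed reads outside the mitochondrial chromosome, 21 members were again called higher and 2 lower. All 5 pan-leukocyte markers averaged at least 1 FPKM but only 5 of 15 myeloid and monocyte markers did: MPO was at most 0.0337 FPKM in any library, CD14 at most 0.441 and CD68 at most 0.203. All 13 erythroid markers averaged at least 1 FPKM. The summed level of the myeloid markers was 45.6 to 49.9 FPKM with celastrol and 60.1 to 70.8 with DMSO, that of the erythroid markers 672 to 739 and 799 to 854, and that of the pan-leukocyte markers 804 to 954 and 546 to 559. Single markers moved more than these sums. Of the 13 erythroid markers, 9 were called lower and none higher, while the abundant RHAG and TFRC were not called. Log2 fold changes were -2.18 for KEL and -1.25 for the transcription factor KLF1. They were -3.12 for AHSP, which stabilizes alpha globin, and -2.76 for the anion exchanger SLC4A1. AHSP and SLC4A1 averaged 0.399 and 0.347 FPKM with celastrol and 4.09 and 2.98 with DMSO. Both passed the minimum for a test only through the DMSO libraries, and their fold changes rest on low celastrol values. Of the 5 pan-leukocyte markers, 3 were called higher, and LAPTM5, itself a lysosomal membrane protein, carried most of the sum at a mean of 675 FPKM with celastrol and 404 with DMSO. The summed lymphoid markers were at 15.4 to 15.9 against 8.42 to 10.4 FPKM and the epithelial and stromal markers at 20.8 to 22.7 against 35.8 to 39.6, and the megakaryocyte markers at 2.23 to 2.96 against 3.01 to 4.01. Of 3 tested lymphoid markers, 2 were called higher and none lower. Among these, NKG7 averaged 4.53 FPKM with celastrol and 0.813 with DMSO (log2 fold change 2.49). NKG7 passed the minimum for a test only through the celastrol libraries. EPCAM carried most of the epithelial and stromal sum, at a mean of 15.6 FPKM with celastrol and 32.0 with DMSO. PECAM1, the other tested marker of that list, was not called. Of 5 tested myeloid markers, 2 were called lower and none higher. LYZ averaged 17.6 FPKM with celastrol and 38.0 with DMSO, while SPI1, not called, averaged 22.3 and 17.9. The part of these marker shifts in the results below was not tested. Celastrol replicate 3 held the highest celastrol value for 32 of the 44 tested members, against 38.9% of all tested genes. Without it, 13 members were called higher against 21 with all libraries, and 1228 of all tested genes against 1947.

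Promoters were searched for the CLEAR element before the levels are given, since it is the sequence through which MiT/TFE factors are known to act. RefSeq promoters (GRCh38.p14, 250 bases before to 50 after a gene start) were at hand for 34 of the 47 genes, some with several starts. The letters TCACGTGA, which contain the E-box CACGTG and read the same on both strands, occurred in a promoter of 5 of these 34 genes, against 1.18% of all 27305 genes with a promoter and 2.45% of the tested genes with one. The same letters with a G before and a C after them, a palindrome of 10 bases, occurred in 3 of 34 against 0.421% of all genes and 1% of tested genes. CACGTG alone occurred in 9 of 34 against 8.77% of all genes and 13.1% of tested genes. The element was already known near lysosomal genes, so these shares only describe the members and were not tested. The windows around each TCACGTGA are shown because the genes that carry it did not respond alike: MCOLN1, LAMP1 and ATP6V1G1 rose, while GAA and ATP6V0D1 were not called. Each is written on its gene's strand, 5′ to 3′, with the motif in capitals, and those of GAA, of ATP6V1G1 and the second of MCOLN1 lie within the palindrome of 10 bases.
MCOLN1, chr19:7522572-7522599: ccagaggcggTCACGTGAggggctctgg
MCOLN1, chr19:7522599-7522626: ggctaccgggTCACGTGAccgaggcaca
LAMP1, chr13:113297200-113297227: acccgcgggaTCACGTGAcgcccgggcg
LAMP1, chr13:113297227-113297254: gcggcgcagcTCACGTGAcaagcgctgc
ATP6V1G1, chr9:114587700-114587727: cgctgtgcggTCACGTGAcaacgggggc
GAA, chr17:80101494-80101521: ggaggccgcgTCACGTGAcccaccgcgg
GAA, chr17:80101539-80101566: ctcccgccggTCACGTGAcccgcctctg
ATP6V0D1, chr16:67481200-67481227: ccccttatggTCACGTGAggcgcttgcg

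All of these motifs begin within 77 bases before the RefSeq start. Among members with a promoter, TCACGTGA occurred in 3 of the 16 that were called higher and in 2 of the 14 that were tested and not called. Over all tested genes with a promoter it occurred in 2.69% of those called higher, 2.24% of those called lower and 2.43% of those not called. The 250 bases before the start of MCOLN1 (chr19:7522374-7522623, plus strand), the member with the largest increase, hold both of its motifs in their last 50 bases:
MCOLN1 upstream: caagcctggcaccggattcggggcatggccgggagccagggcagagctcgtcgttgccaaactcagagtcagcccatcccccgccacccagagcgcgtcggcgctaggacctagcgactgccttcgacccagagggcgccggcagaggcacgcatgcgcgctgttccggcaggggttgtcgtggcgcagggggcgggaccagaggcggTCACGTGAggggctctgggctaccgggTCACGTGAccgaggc

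Of the 3 transcription factors, TFE3 was by far the most abundant, it rose modestly, and TFEB was nearly silent. TFE3 (chromosome X, 49028726 to 49043486) lay at 26.97, 28.9 and 29.9 FPKM in celastrol replicates 1 to 3 and 25.6, 18.9 and 21.9 in DMSO replicates 1 to 3. The lowest celastrol value stood just above the highest DMSO value, a 1.29-fold rise in the mean (log2 fold change 0.38, SE 0.11, adjusted p = 0.0396). MITF, better known from melanocytes and osteoclasts, gave 4.83, 5.19 and 4.24 FPKM with celastrol and 5.04, 5.23 and 5.16 with DMSO, and its groups overlapped (adjusted p = 0.381). TFEB had only 20 to 43 reads per library, 0.263 to 0.459 FPKM, and was below the minimum for a test. As a share of the 3 factors' summed FPKM, which does not depend on the library total, TFE3 made up 83.7% to 86.8% in celastrol libraries and 77.5% to 82.4% in DMSO libraries. TFEB made up no more than 1.42% in any library. The call of TFE3 was lost without any 1 of the celastrol libraries, or without DMSO replicate 2 or 3 (adjusted p = 0.0626 to 0.111), with the replicate number as a block (adjusted p = 0.0566) and when genes of any level were tested (adjusted p = 0.108).

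**Figure D2:**
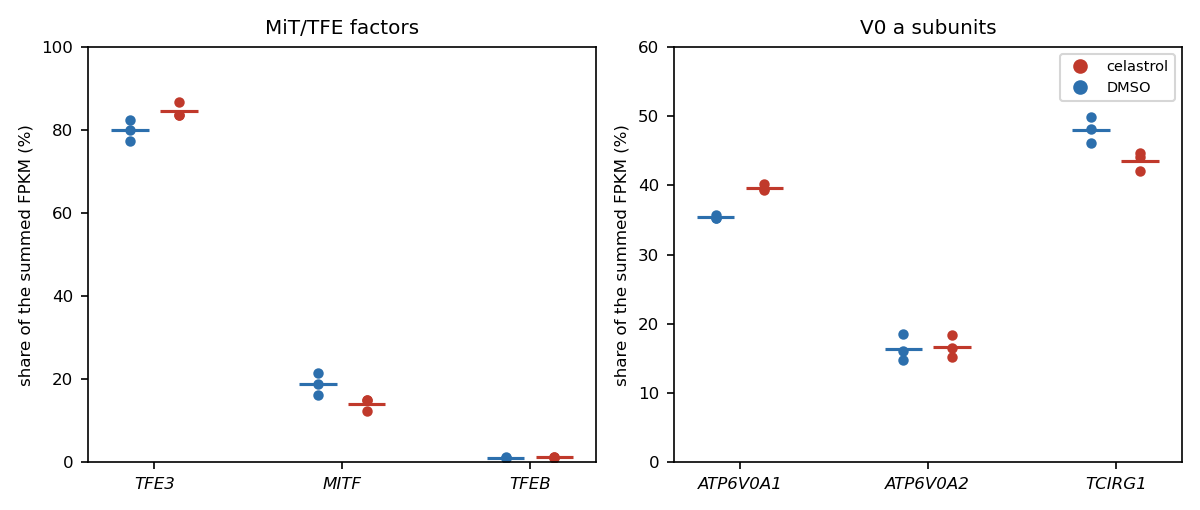
Share of the summed FPKM taken by each MiT/TFE factor (left) and by each a subunit of the V0 sector (right) in each library; points are libraries and bars are group means. TFE3 held 84.7% on average with celastrol and 80.0% with DMSO, and ATP6V0A1 held 39.7% and 35.5%.

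Of the 6 lysosomal membrane proteins, 5 were called higher and none lower, against 15.3% and 14.2% of all tested genes. In all 6 the celastrol values lay above every DMSO value, against 25.3% of all tested genes. The median log2 fold change of the 6 was 0.34, against 0.15 for 24 further tested membrane proteins of the lysosome described later. MCOLN1, the TRPML1 channel that releases calcium from lysosomes (chromosome 19, 7522626 to 7534009), had the largest fold change of the 44 tested members. Its level was 9.39, 10.4 and 11.3 FPKM with celastrol and 4.88, 4.32 and 4.03 with DMSO. Every celastrol library was thus well above every DMSO library, and the mean was 2.35-fold higher (log2 fold change 1.22, SE 0.10, adjusted p = 0.000323). It kept its call under all 17 alternative settings, with a highest adjusted p of 0.00287.

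The major membrane glycoproteins LAMP1 and LAMP2, which line the lysosome, rose less. LAMP2 (chromosome X, 120427827 to 120469365) was at 40.4, 43.2 and 40.6 FPKM with celastrol and 29.2, 34.2 and 32.8 with DMSO, a 1.29-fold rise (adjusted p = 0.0119). LAMP1 gave 21.7, 22.3 and 25.2 FPKM with celastrol and 19.7, 16.95 and 19.3 with DMSO and was 1.24-fold higher (adjusted p = 0.0382). CD63, a tetraspanin of late endosomes and lysosomes and the most abundant of the 6, had 147, 179 and 218 FPKM with celastrol and 136, 112 and 133 with DMSO. Its celastrol libraries were spread widely, from 147 to 218 FPKM, and all exceeded DMSO (1.43-fold, adjusted p = 0.0363). NPC1, which moves cholesterol out of the lysosome, was at 11.9, 12.5 and 13.02 FPKM with celastrol and 10.9, 10.6 and 10.5 with DMSO, a small but clean separation of 1.17-fold (adjusted p = 0.0405). SCARB2, also known as LIMP-2, an abundant protein of the lysosomal membrane, was at 4.87, 5.29 and 5.73 FPKM with celastrol and 4.21, 4.497 and 4.82 with DMSO and was not called (log2 fold change 0.23, adjusted p = 0.109). The call of LAMP2 was lost without celastrol replicate 2 (adjusted p = 0.0554). Those of LAMP1 and NPC1 were lost without any 1 celastrol library or without DMSO replicate 2 or 3, and that of CD63 without any 1 library other than celastrol replicate 1 (adjusted p = 0.0531 to 0.143 over these 3 genes). LAMP1, CD63 and NPC1 also lost theirs when genes of any level were tested (adjusted p = 0.0886, 0.122 and 0.0594), and NPC1 with quantile normalization (0.0693) or the replicate block (0.0835).

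Of the soluble lumenal proteins, 3 of 4 were called higher and none lower, against 15.3% and 14.2% of all tested genes. Their median log2 fold change was 0.38. GRN, the progranulin precursor whose granulin peptides act in the lysosome (chromosome 17, 44345086 to 44353102), was at 67.8, 72.6 and 77.3 FPKM with celastrol and 56.3, 45.3 and 49.6 with DMSO. It was 1.44-fold higher with no overlap (log2 fold change 0.53, SE 0.10, adjusted p = 0.00641) and kept its call in every alternative. PSAP, precursor of the saposins that present sphingolipids to hydrolases (chromosome 10, 71816298 to 71851375), was the most abundant member, at 613, 668 and 769.9 FPKM with celastrol and 551, 472 and 531 with DMSO. The increase was 1.32-fold (adjusted p = 0.0237). NPC2, the soluble partner of NPC1, had 17.8, 19.3 and 23.8 FPKM with celastrol and 15.1, 15.5 and 16.1 with DMSO (1.302-fold, adjusted p = 0.0401). GM2A, the activator protein that lets hexosaminidase A reach ganglioside GM2, was at 17.4, 17.3 and 21.7 FPKM with celastrol and 19.6, 20.8 and 18.8 with DMSO, with overlapping groups (log2 fold change -0.07, adjusted p = 0.616). PSAP lost its call without replicate 2 or replicate 3 of either treatment, and NPC2 without any 1 library other than celastrol replicate 1 (adjusted p = 0.0560 to 0.0893). When genes of any level were tested both were above the threshold (adjusted p = 0.152 for PSAP and 0.107 for NPC2).

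**Figure D3:**
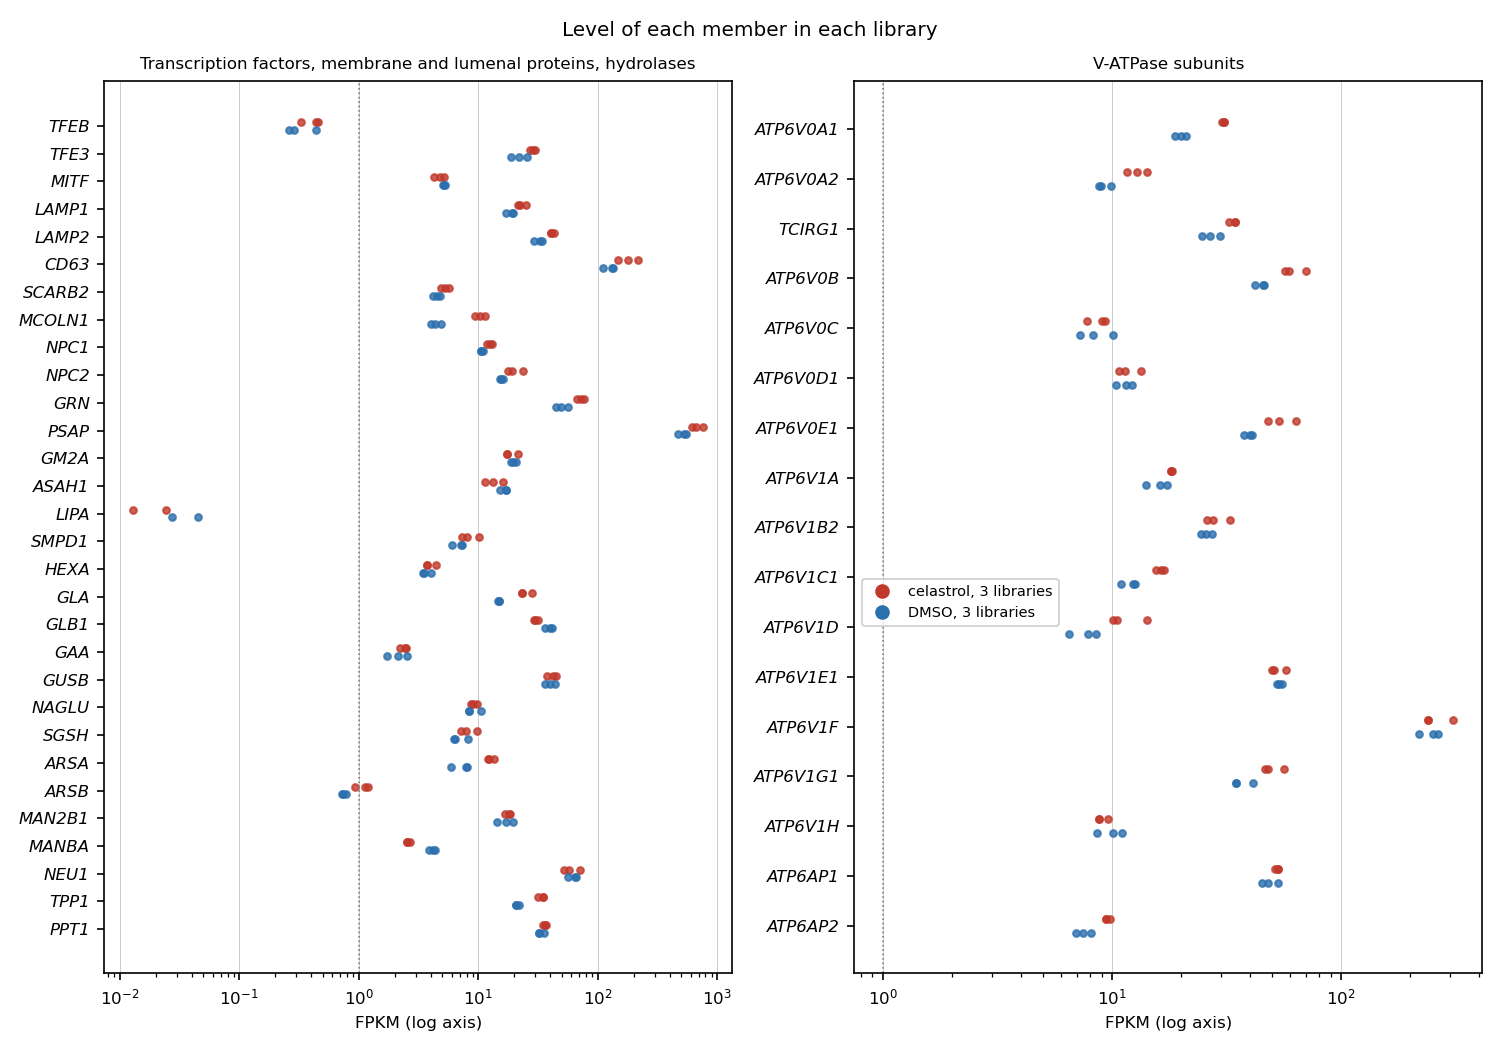
FPKM of each of the 47 genes in each library on a log axis, with celastrol libraries in red above DMSO libraries in blue; the dotted line marks 1 FPKM, and LIPA libraries at 0 are not drawn. MCOLN1, GLA, ARSA, TPP1 and ATP6V0A1 show clear gaps upward, MANBA and GLB1 gaps downward, and PSAP is the highest gene on the plot.

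Hydrolases were divided. Of 17, 15 were tested: 3 were called higher, or 20%, 2 lower, or 13.3%, and 10 not called. Both shares lay close to those of all tested genes, and the median log2 fold change of 0.09 was the lowest of the groups of enzymes, membrane and lumenal proteins and pump subunits. The 3 that rose act on different substrates. ARSA, the sulfatase that degrades sulfatide (chromosome 22, 50622754 to 50628173), was at 12.3, 12.1 and 13.5 FPKM with celastrol and 7.98, 5.93 and 8.03 with DMSO, with a mean 1.73-fold higher (log2 fold change 0.79, SE 0.13, adjusted p = 0.00385). GLA, the alpha-galactosidase that degrades globotriaosylceramide (chromosome X, 101397803 to 101408012), was at 23.3, 23.3 and 28.3 FPKM with celastrol and 14.9, 14.7 and 14.9 with DMSO. Its DMSO libraries were nearly equal, and every celastrol library lay far above them (1.68-fold; log2 fold change 0.74, SE 0.09, adjusted p = 0.00134). TPP1, a peptidase that cuts tripeptides from the ends of proteins (chromosome 11, 6612763 to 6619485), was at 31.5, 35.1 and 34.95 FPKM with celastrol and 20.8, 20.9 and 21.9 with DMSO, a 1.598-fold increase (log2 fold change 0.67, SE 0.07, adjusted p = 0.000754). All 3 kept their calls in every alternative, with adjusted p-values of at most 0.0181.

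The 2 hydrolases that fell both remove sugars, as do GLA, which rose, and GUSB, NEU1 and others that were not called. MANBA, the beta-mannosidase of N-glycan breakdown (chromosome 4, 102630770 to 102760994), was at 2.54, 2.71 and 2.56 FPKM with celastrol and 3.85, 4.19 and 4.34 with DMSO. Celastrol values were all below DMSO values, a 1.58-fold decrease (log2 fold change -0.64, SE 0.10, adjusted p = 0.002905), called in each alternative that tested it. GLB1, the beta-galactosidase of ganglioside and keratan sulfate breakdown (chromosome 3, 32996608 to 33097230), was at 29.3, 29.9 and 31.6 FPKM with celastrol and 40.3, 36.3 and 41.5 with DMSO, a 1.302-fold decrease (log2 fold change -0.38, SE 0.08, adjusted p = 0.00947). This call was lost after rescaling to TPM (adjusted p = 0.132), which raises the median log2 fold change of all genes to 0.26, and without DMSO replicate 3 (adjusted p = 0.0506).

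The 10 hydrolases that were tested and not called had overlapping groups. ASAH1, the acid ceramidase, was at 11.4, 13.3 and 16.1 FPKM with celastrol and 15.2, 17.2 and 17.2 with DMSO, with celastrol replicate 3 inside the DMSO range (log2 fold change -0.29, adjusted p = 0.125). Without that library it was called lower (adjusted p = 0.0355). SMPD1, the acid sphingomyelinase that acts just before it in sphingolipid breakdown, was at 8.11, 7.34 and 10.1 FPKM with celastrol and 7.12, 5.996 and 7.39 with DMSO (log2 fold change 0.31, adjusted p = 0.124). The enzymes of glycosaminoglycan breakdown, GUSB (beta-glucuronidase), NAGLU and SGSH (both of heparan sulfate), had log2 fold changes of 0.06, 0.01 and 0.24. NEU1, the sialidase and the most abundant hydrolase, averaged 60.6 ± 10.01 FPKM in celastrol and 62.6 ± 4.83 FPKM in DMSO libraries (SD, n = 3 per treatment), a difference smaller than either spread. GAA, which degrades glycogen, was among the lowest at 1.71 to 2.53 FPKM (log2 fold change 0.18). HEXA, MAN2B1 and PPT1, which act on ganglioside GM2, alpha-mannosides and fatty acylated proteins, had log2 fold changes of 0.09, 0.08 and 0.11. Reads of GUSB may be shared with its pseudogenes, 11 of which are listed and together reach 15.6 FPKM. Exons of PPT1 and MAN2B1 overlap those of other genes over 23.4% and 21.2% of their bases. Among the called hydrolases this overlap was 14.4% for TPP1, 11.3% for MANBA, 10% for GLB1 and 0% for GLA and ARSA.

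The remaining 2 hydrolases were below the minimum for a test. LIPA, the acid lipase that frees cholesterol and fatty acids from lipoproteins, had 0 to 3 reads in every library, so it was not detectable at this depth beyond single reads in either group. ARSB, which removes sulfate from dermatan sulfate, was at 1.14, 0.938 and 1.195 FPKM with celastrol and 0.729, 0.788 and 0.736 with DMSO. Its celastrol values were all above the DMSO values, and its mean over the 6 libraries fell just short of 1 FPKM.

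The V-ATPase had 9 of 17 subunits called higher and none lower, against 15.3% and 14.2% of all tested genes. Its median log2 fold change was 0.32. Most of the called subunits were in the membrane sector: 5 of 7 V0 subunits were called higher, against 3 of 8 V1 subunits and 1 of 2 accessory subunits. The V0 median was 0.47 and the V1 median 0.17. Whether the sectors differ was not tested, since subunits are not replicates.

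The V0 a subunit is the stator arm whose isoform directs the pump to its membrane, and the 3 of its genes among the members rose. A further a subunit gene, ATP6V0A4, was listed at 0 in all 6 libraries. ATP6V0A1 (chromosome 17, 42458844 to 42522611) was at 30.3, 30.8 and 30.9 FPKM with celastrol and 20.99, 18.8 and 19.9 with DMSO, with celastrol libraries within 1 FPKM of each other and far above DMSO (1.54-fold; log2 fold change 0.62, SE 0.07, adjusted p = 0.000846). ATP6V0A2, the isoform of the Golgi and early endosomes, was at 14.2, 12.9 and 11.7 FPKM with celastrol and 8.78, 9.85 and 8.93 with DMSO (1.41-fold, adjusted p = 0.007904). TCIRG1, the a3 isoform of lysosomes and osteoclasts, was at 32.3, 34.5 and 34.3 FPKM with celastrol and 29.6, 24.6 and 26.8 with DMSO, the smallest rise of the 3 (1.25-fold, adjusted p = 0.0236). ATP6V0A1 therefore made up more of their summed FPKM with celastrol, 39.4% to 40.2% against 35.3% to 35.8%. TCIRG1 made up less, 42.1% to 44.6% against 46.2% to 49.8%, and the share of ATP6V0A2 overlapped between groups. The size of each share depends on the gene length used, 10955 bases for ATP6V0A1 and 4384 for TCIRG1. ATP6V0A1 had more reads than TCIRG1 in every library.

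Of the 2 proteolipids of the rotating ring, 1 was called higher. ATP6V0B, the c″ subunit, was at 57.1, 59.01 and 70.6 FPKM with celastrol and 45.9, 41.98 and 45.6 with DMSO, with no overlap (1.399-fold, adjusted p = 0.00894). ATP6V0C, the c subunit, was at 9.31, 9.05 and 7.78 FPKM with celastrol and 7.28, 8.23 and 10.1 with DMSO and overlapped (adjusted p = 0.862). Its level is uncertain, because 72.1% of its exon bases also lie in exons of other annotated genes on the same strand and 4 pseudogenes are listed. The small subunit ATP6V0E1 was at 47.9, 53.3 and 63.4 FPKM with celastrol and 40.7, 39.9 and 37.8 with DMSO and rose 1.39-fold (adjusted p = 0.0145). Its paralog ATP6V0E2, outside the 47 genes, fell from 2.78 ± 0.208 to 1.52 ± 0.0871 FPKM (SD, n = 3 each; log2 fold change -0.83, adjusted p = 0.00382). ATP6V0D1, which couples the ring to the central stalk, was at 11.4, 10.8 and 13.4 FPKM with celastrol and 12.2, 10.4 and 11.5 with DMSO, with overlapping groups (adjusted p = 0.722).

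In the V1 sector, 3 subunits rose. ATP6V1C1, at the contact with the V0 stator, was at 15.6, 16.4 and 16.9 FPKM with celastrol and 10.9, 12.6 and 12.4 with DMSO (1.36-fold, adjusted p = 0.00645). ATP6V1G1, of the peripheral stalk, was at 48.02, 46.7 and 56.2 FPKM with celastrol and 34.7, 41.3 and 34.6 with DMSO (1.36-fold, adjusted p = 0.0155). ATP6V1D, of the central rotor shaft, was at 10.1, 10.5 and 14.3 FPKM with celastrol and 6.503, 8.47 and 7.85 with DMSO, with celastrol replicate 3 well above the other celastrol libraries (1.53-fold, adjusted p = 0.0226). None of the 5 others was called. The catalytic subunit ATP6V1A was at 18.01, 18.3 and 18.1 FPKM with celastrol and 14.1, 17.4 and 16.2 with DMSO without overlap (log2 fold change 0.20, adjusted p = 0.132). Its nucleotide-binding partner ATP6V1B2, and ATP6V1E1, ATP6V1F and ATP6V1H, had overlapping groups and log2 fold changes of 0.15, -0.02, 0.10 and -0.12. Levels per length differed widely within the sector, from ATP6V1H at 8.60 to 11.03 FPKM to ATP6V1F at 219 to 309. Exons of ATP6V1F share 23.7% of their bases with a gene on the other strand.

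Of the accessory subunits, ATP6AP2, also known as the prorenin receptor, was at 9.38, 9.46 and 9.76 FPKM with celastrol and 6.95, 8.07 and 7.51 with DMSO and rose 1.27-fold (adjusted p = 0.0156). ATP6AP1, which helps to assemble V0, was at 53.1, 51.3 and 52.8 FPKM with celastrol and 53.1, 45.2 and 47.97 with DMSO and was not called (adjusted p = 0.324). ATP6V0A1, ATP6V0A2, ATP6V0B and ATP6V1C1 kept their calls in every alternative. Without DMSO replicate 3 only these 4 subunits remained called. TCIRG1 and ATP6AP2 were also lost without celastrol replicate 2 or 3 and ATP6V1D without DMSO replicate 1 (adjusted p = 0.0523 to 0.0872 over all these losses), and when genes of any level were tested TCIRG1 and ATP6V1D were lost (adjusted p = 0.0559 and 0.0767).

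Set beside the pump, the 25 tested hydrolases, membrane and lumenal proteins had 11 called higher and 2 lower. These were 44% and 8%, against 15.3% and 14.2% of all tested genes. The median log2 fold change was 0.23 against 0.32 for the V-ATPase. This difference of 0.10 turned to -0.016 without DMSO replicate 1 and shrank to 0.016 with a minimum mean of 5 FPKM. In each library, the mean log2(FPKM + 0.1) of the V-ATPase genes exceeded that of the other genes by 0.45, 0.40 and 0.39 in celastrol replicates 1 to 3 and by 0.29, 0.47 and 0.37 in DMSO replicates 1 to 3. These differences overlapped between treatments. Against the hydrolases alone they did not: 0.95, 0.93 and 0.94 with celastrol and 0.69, 0.90 and 0.77 with DMSO, although celastrol replicate 2 and DMSO replicate 2 were close. On this scale the membrane and lumenal genes together averaged 4.98 to 5.24 in celastrol libraries and 4.65 to 4.73 in DMSO libraries, and the V0 genes 4.57 to 4.64 and 4.19 to 4.27. Hydrolases were at 3.73 to 3.88 and 3.55 to 3.73, with celastrol replicate 1 just below DMSO replicate 1, and all tested genes at 2.87 to 2.88 in both groups. No p-value is given for these means, because their genes were chosen with earlier results known.

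**Figure D4:**
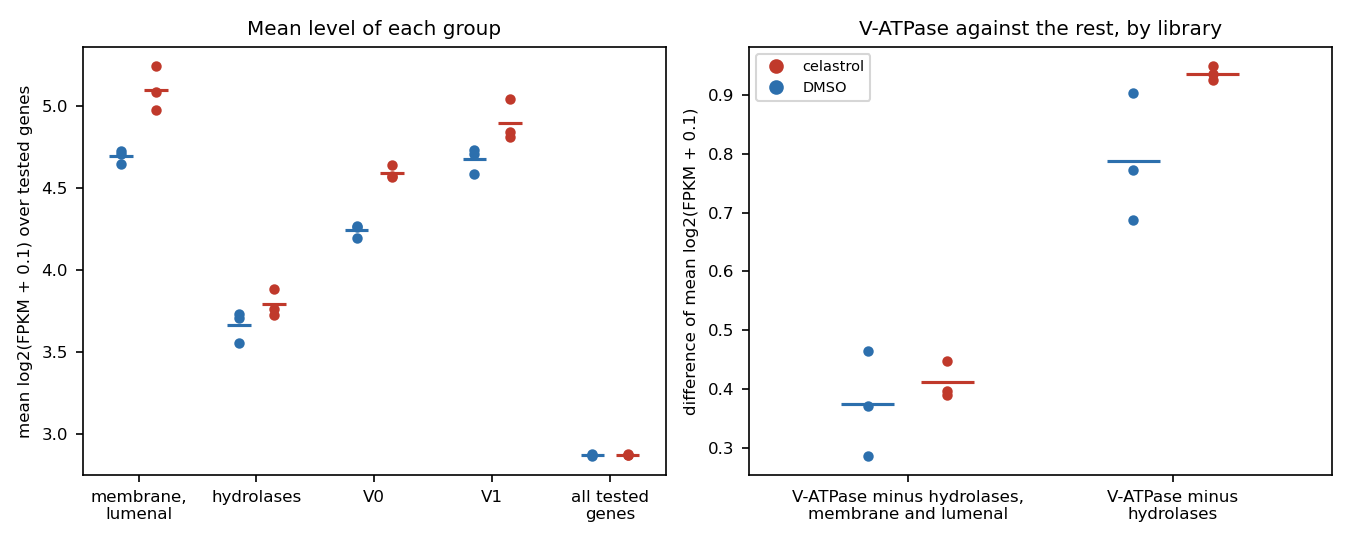
Mean log2(FPKM + 0.1) over the tested genes of each group in each library (left) and the V-ATPase mean minus that of the other groups (right); points are libraries and bars group means. Celastrol and DMSO libraries overlap for the V-ATPase against all hydrolases, membrane and lumenal genes, and separate narrowly against hydrolases alone.

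Other genes of the lysosome were described from 5 lists. Of 26 tested further hydrolases, 7 were higher and 2 lower (median log2 fold change 0.11). These were 26.9% and 7.69%, against 15.3% and 14.2% of all tested genes. As given above, both background shares were larger for protein-coding genes alone and with a minimum mean of 5 FPKM. Counts of the 5 lists were not made under those settings. IDS, the iduronate sulfatase of heparan and dermatan sulfate breakdown, rose from 3.34 ± 0.352 to 8.90 ± 1.28 FPKM (SD, n = 3 each; log2 fold change 1.38, adjusted p = 0.000479). The acid phosphatase ACP2 was higher by a log2 fold change of 0.55. AGA, which cleaves glycoasparagines, fell by 0.84 and the nuclease DNASE2 by 0.39, and the call of DNASE2 needed both celastrol replicate 2 and DMSO replicate 3 (adjusted p up to 0.0617 without one of them) and did not survive rescaling to TPM (adjusted p = 0.159). Reads of IDS may be shared with its pseudogene IDSP1.

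Of 24 tested further membrane proteins, 6 were higher and 1 lower (median 0.15), or 25% and 4.17%. SLC38A9, an arginine sensor upstream of mTORC1, rose by a log2 fold change of 0.83, LAPTM5 by 0.73 and LAPTM4A by 0.58, while the sialomucin CD164 fell by 0.68. Other V-ATPase isoforms and assembly factors had 1 higher and 3 lower of 13 tested (median -0.14), or 7.69% and 23.1%. The called genes were TMEM199 at 0.54, and ATP6V0E2, NCOA7 and DMXL2 at -0.83, -0.58 and -0.23. Genes that sort proteins to the lysosome had 2 higher and 2 lower of 30 tested (median 0.12), or 6.67% each way. These were VPS39 at 0.31, AP1G1 at 0.25, CLN6 at -0.52 and FIG4 at -0.26. The mTORC1 platform and TFEB regulators had 2 higher and 2 lower of 23 (median 0.08), or 8.7% each way. The sorting and platform lists were thus called less often than all tested genes, at 15.3% higher and 14.2% lower. In the platform list the called genes were RRAGA at 0.36, YWHAQ at 0.30, MLST8 at -0.48 and FLCN at -0.44. FLCN promotes TFEB and TFE3 retention in the cytosol. TMEM199, DMXL2, VPS39, AP1G1, CLN6, FIG4, RRAGA and FLCN each lost their call without at least 3 of the libraries in turn, and YWHAQ without DMSO replicate 3 (adjusted p up to 0.173 over these genes). Over all alternatives FIG4 lost its call in 13 of 16, with both other pseudocounts and every other scaling except quantile normalization (adjusted p up to 0.834), and DMXL2 in 11 of 17 (adjusted p up to 0.922). CLN6 and FLCN also lost theirs after rescaling to TPM.

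**Figure D5:**
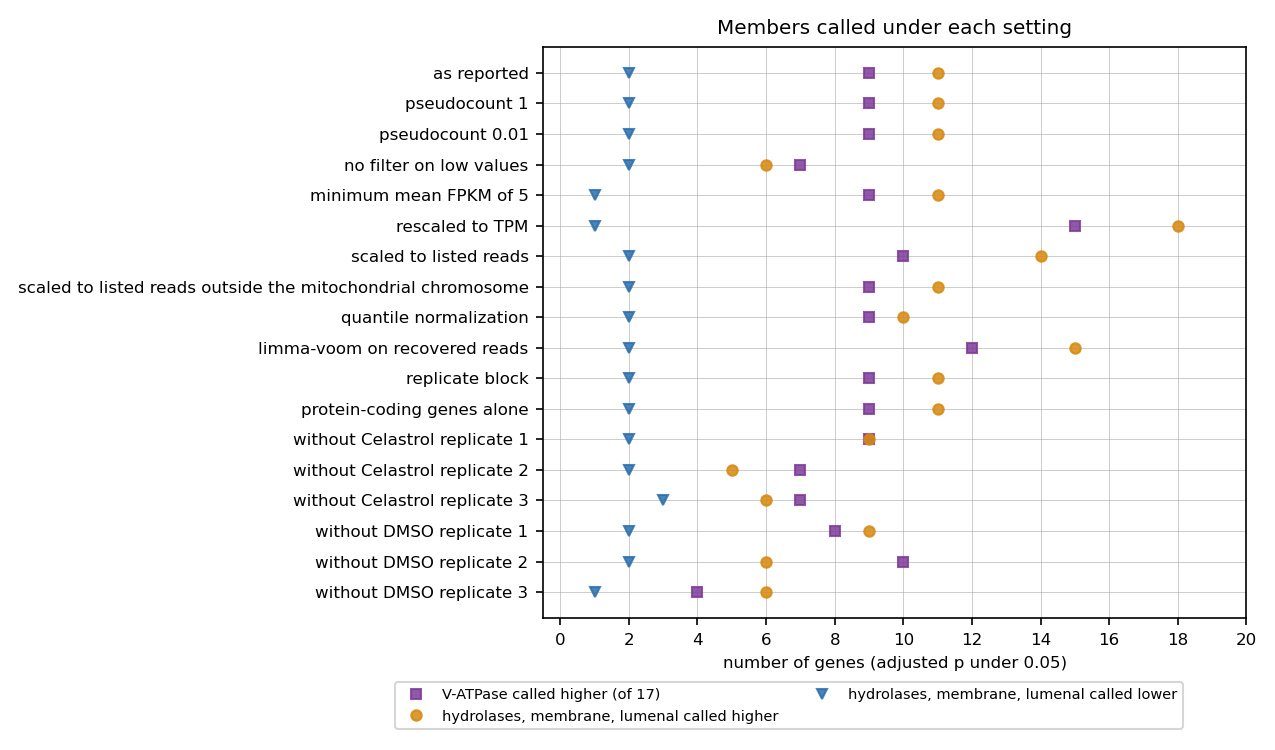
Number of V-ATPase genes (squares) and of hydrolases, membrane and lumenal genes (circles higher, triangles lower) called under each alternative setting and without each library. Counts of higher V-ATPase genes run from 4 without DMSO replicate 3 to 15 after rescaling to TPM, against 9 as reported, and at most 3 other genes were called lower.

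These counts depend on the library total and on single libraries. The total behind the deposited FPKM was 1.04 to 1.05 times the listed reads for celastrol and 0.963 to 0.994 times for DMSO, which lowers celastrol against DMSO. Over all tested genes, 1947 were called higher and 1797 lower as deposited, 5266 and 813 after rescaling to TPM, 3024 and 1295 when scaled to listed reads, and 3650 and 1465 with limma-voom on recovered reads. The members had 34, 25 and 28 higher under these 3 settings. Measured from the median of all tested genes, the members' median was 0.21 higher on the log2 scale, and it lay between 0.18 and 0.29 in the 17 alternatives. Without DMSO replicate 3, 10 members were called higher and 1 lower, and without celastrol replicate 2, 12 were called higher. The hydrolases, membrane and lumenal genes called higher numbered 5 without celastrol replicate 2 and 6 without celastrol replicate 3, DMSO replicate 2 or DMSO replicate 3.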

How the data were processed

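RNA of SKM-1 cells was sequenced after celastrol (3 libraries) or DMSO (3 libraries). The authors deposited FPKM per gene with gene length in bases, made with HISAT2 2.0.5, featureCounts 1.5.0-p3 and GRCh38, as the submitters' processing notes name them. The sources used here give no settings, strand or library total. GENCODE release 29 matched all 58735 genes. FPKM times gene length was a whole multiple of 1 read (within 0.001) for 100% of nonzero values, which gave the reads. Tests used limma-trend (limma 3.58.1, R 4.3.3), two-sided, on log2(FPKM + 0.1) for genes with a mean of at least 1 FPKM, with treatment as the single term. The steps were tested on simulated counts. Libraries of a treatment differed by more than sampling noise (chi-square per gene 4.01 to 13.4), so none repeated another. Members and lists were chosen with earlier results of these data known. All 47 members are named; of each further list up to 3 called genes per direction are named by size of change, and 1 result that this rule would name is not reported here. Promoter sequences come from RefSeq (GRCh38.p14), whose chromosomes have the coordinates of GRCh38. Alternatives are listed in the closing section.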

Additional observations from a re-analysis of the deposited data

How the results depend on the processing

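The 17 alternatives were pseudocounts of 1 and 0.01, no filter or a minimum mean of 5 FPKM, TPM, scaling to listed reads with or without mitochondrial genes, quantile normalization, limma-voom, the replicate number as a block, protein-coding genes alone, and leaving out each library. All 23 called members kept their direction in every alternative that tested them, and 10 of them kept their call in all. Members called higher, 21 as reported, numbered 34 under TPM, 13 with no filter and 10 to 18 without single libraries. Members called lower numbered 1 under TPM and with the minimum of 5 FPKM, which leaves MANBA untested, and 1 to 3 without single libraries. V-ATPase genes called higher, 9 as reported, numbered 15 under TPM and 4 to 10 without single libraries. Hydrolases, membrane and lumenal genes called higher, 11 as reported, numbered 18 under TPM, 6 with no filter and 5 to 9 without single libraries; those called lower numbered 1 under TPM and with the minimum of 5 FPKM and 1 to 3 without single libraries. Over all genes, 5266, 3024 and 3650 were higher under TPM, listed reads and limma-voom and 813 lower under TPM. Without single libraries, 1125 to 1937 were higher and 987 to 1767 lower, with 1128 higher and 1129 lower without celastrol replicate 2, 1228 higher without celastrol replicate 3, and both lowest counts without DMSO replicate 3. The V-ATPase median log2 fold change minus that of the hydrolases, membrane and lumenal genes was 0.10 as reported, 0.016 with the minimum of 5 FPKM, and -0.016 to 0.13 without single libraries, turning below 0 without DMSO replicate 1. The members' median minus that of all genes was 0.18 to 0.29 without single libraries. ATP6V1E1, not called at -0.02, was called higher under TPM at 0.22. Apart from these, causes were not tested.

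With the replicate block, 1776 genes were higher and 1617 lower, and 20 members were higher and 2 lower, TFE3 and NPC1 losing their calls and SMPD1 gaining one. The labels do not say whether equal numbers pair the libraries. Deviations of same-numbered libraries from their group means correlated at -0.0156, -0.0326 and 0.0339. These values show little common deviation but cannot tell whether such libraries shared a culture or day. LIPA, at 0 to 3 reads per library, is limited by depth.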
